A study of Mus musculus with 16 samples.

Results

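Solute carrier genes encode membrane proteins that move amino acids, sugars, ions, metals, nucleotides and drugs across the plasma membrane and the membranes of organelles. The members were chosen by name and biotype: every RNA that the tables class as protein-coding and whose symbol is Slc or Slco followed by a family number, a letter and a member number. 250 such genes were found in at least 1 table, of 10736 protein-coding RNAs (pcRNAs) in all. They came from 45 families on 20 chromosomes, with 10 genes on the X chromosome. 4 of the symbols fit the pattern although the protein is not itself a carrier (*Slc9a3r1* and *Slc9a3r2*, scaffold proteins, and the neighbouring genes *Slc4a1ap* and *Slc7a6os*).

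The study asked which RNAs contact chromatin that carries H3K27me3 in mouse embryonic stem cells (mESCs) of the PGK12.1 line. Cells fixed with 1% formaldehyde and grown in serum with leukemia inhibitory factor had their nuclei treated so that each RNA was joined through an adaptor to DNA near it, and the RNA–DNA chimeras were then pulled down with an antibody against H3K27me3 (H3K27me3-RADIP). The Input libraries were made from a portion of the same kind of material kept back before the pull-down, so both conditions share cell line, fixation and ligation. The labels list 8 libraries per condition, more than the biological replicates of the study's methods, so some may be repeat runs of 1 replicate. Each condition was deposited as 1 merged table, so no spread between replicates could be computed and every test below compares 2 merged tables and not the conditions.

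Every line reports 1 pair: a tag read from the RNA side and a tag read from the DNA side of a chimera. A combination of an RNA and a 25-kb bin of the genome was kept by the authors only where its q-value was at most 0.1, and the smallest member combination held 7 pairs. A gene absent from a table therefore had no bin that passed that limit, which does not mean that it was not transcribed. Over all RNA classes Input listed 1305107 pairs and H3K27me3-RADIP 1415135. Input held 8 of 14 stem cell markers and H3K27me3-RADIP 9, with 5345 and 5351 pairs, while *Pou5f1* and *Nanog* had none in either. Of 6 fibroblast markers, *Pdgfra* had 7 pairs in Input only and *Col1a1* 7 in H3K27me3-RADIP only. Of 6 primitive endoderm markers, 5 had pairs in both tables, 379 in Input and 495 in H3K27me3-RADIP, with *Col4a1* at 92 and 175 and *Sox17* at none. Their part in the results was not tested.

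Trimethylation of lysine 27 on histone H3 is written by Polycomb repressive complex 2 and covers the promoters of many developmental regulators that are silent in stem cells, homeobox and forkhead genes among them. Much of the RNA found on chromatin is nascent pre-mRNA near its own gene, whereas a pair far from the gene places its RNA beside another locus. What kind of molecule an intronic tag comes from was not measured. Housekeeping carriers for amino acids, glucose and phosphate are transcribed in mESCs, whereas many carriers of kidney, liver, gut and brain are used mainly in those tissues.

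The sequences that follow belong to the places on which the contacts described later turn. The first pair are the promoters of *Slc4a8* and *Slc16a1*, the members with the highest and the lowest log2 fold change from Input to H3K27me3-RADIP among those with at least 50 pairs in both tables together. The next are promoters of genes inside bins that member RNAs contacted. *Dlx2* and *Pou4f2* lie in bins where *Slc25a12* and *Slc10a7* RNA had more pairs in H3K27me3-RADIP. *Fbxo31* lies in a bin that was listed for *Slc7a5* only in Input. The last is the most often repeated RNA tag of any member, an intronic tag of *Slc25a13*. Promoters are the 250 bases before the gene start from RefSeq on GRCm38.p6, the tag was read on its own strand from the same assembly, and all are written 5′ to 3′ with each CG in capitals.

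Slc4a8, chr15:100761497-100761746, plus strand: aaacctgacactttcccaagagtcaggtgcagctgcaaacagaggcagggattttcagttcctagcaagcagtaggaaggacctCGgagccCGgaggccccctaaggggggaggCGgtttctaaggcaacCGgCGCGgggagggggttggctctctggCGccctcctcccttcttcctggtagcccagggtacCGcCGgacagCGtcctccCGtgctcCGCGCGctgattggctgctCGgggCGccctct
Slc16a1, chr3:104638414-104638663, plus strand: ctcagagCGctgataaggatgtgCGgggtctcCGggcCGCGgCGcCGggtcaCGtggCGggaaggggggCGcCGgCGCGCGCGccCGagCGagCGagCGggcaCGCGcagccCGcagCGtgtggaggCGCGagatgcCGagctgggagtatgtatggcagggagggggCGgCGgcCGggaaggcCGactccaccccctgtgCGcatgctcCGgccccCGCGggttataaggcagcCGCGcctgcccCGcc
Dlx2, chr2:71546755-71547004, minus strand: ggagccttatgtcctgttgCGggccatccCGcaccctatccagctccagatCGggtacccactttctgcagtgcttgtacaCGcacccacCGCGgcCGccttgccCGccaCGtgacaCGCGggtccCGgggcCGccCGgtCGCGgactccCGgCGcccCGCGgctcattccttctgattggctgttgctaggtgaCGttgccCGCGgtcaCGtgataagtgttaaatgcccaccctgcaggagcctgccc
Pou4f2, chr8:78436648-78436897, minus strand: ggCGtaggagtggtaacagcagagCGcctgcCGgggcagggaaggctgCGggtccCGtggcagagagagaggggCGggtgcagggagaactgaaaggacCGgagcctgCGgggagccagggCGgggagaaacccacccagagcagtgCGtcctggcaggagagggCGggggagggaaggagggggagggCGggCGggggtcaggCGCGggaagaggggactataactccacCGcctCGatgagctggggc
Fbxo31, chr8:121578807-121579056, minus strand: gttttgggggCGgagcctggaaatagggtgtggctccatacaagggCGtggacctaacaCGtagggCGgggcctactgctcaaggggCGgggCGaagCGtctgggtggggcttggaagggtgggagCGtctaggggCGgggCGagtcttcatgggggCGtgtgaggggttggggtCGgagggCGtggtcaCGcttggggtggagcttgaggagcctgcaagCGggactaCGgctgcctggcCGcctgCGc
Slc25a13 RNA tag, chr6:6091426-6091450, minus strand: agtgcatgCGatggcttgagtttgt

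CG was counted in the window of each of the 196 members with a RefSeq promoter entry. Each member gave a single entry, the one nearest its GENCODE start, which lay within 1 kb of that start for 173 of them. The 5 promoters above held 16, 37, 24, 17 and 18. At least 10 CG stood in 63.8% of the member promoters, against 69.0% of the 11050 promoter entries of all pcRNAs found and 37.8% of all 32851 entries. A gene could count with several entries in the latter sets, so the units differ. Members called higher in H3K27me3-RADIP (defined below) did so in 9 of 14 promoters and members not called in 87 of 130. The *Slc25a13* tag carried 17 pairs in Input, to 16 DNA positions in 11 bins, and 18 pairs in H3K27me3-RADIP, to 18 positions in 13 bins, so the same stretch of intron was recovered against many places.

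In pairs, the members made up a small and similar part of both tables. They held 18075 of 1261178 pcRNA pairs in Input (1.43%, 95% Wilson interval 1.41 to 1.45) and 20989 of 1359456 after the pull-down (1.54%, 1.52 to 1.56), which is 0.111 percentage points higher (95% Newcombe interval 0.0814 to 0.140). Leaving out the 5 members richest in pairs brought it to 0.0536 points. These intervals cover counting error only. 204 members were found in Input and 227 in H3K27me3-RADIP, 181 of them in both.

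Pairs were concentrated in few genes: the 10 members with the most held 49.8% of all member pairs in Input and 49.6% in H3K27me3-RADIP, and the median member had 21 pairs in either table. *Slc10a7*, a member of the bile acid carrier family with no settled substrate, led with 2148 Input and 2169 H3K27me3-RADIP pairs. *Slc25a13*, the mitochondrial aspartate-glutamate carrier citrin, had 1489 and 1531. *Slc6a6*, the taurine transporter, had 1287 and 1590. *Slc7a5*, the light chain of the main transporter for large neutral amino acids, had 902 and 1422. These 4 RNAs and *Slc39a11*, a zinc transporter with 718 and 1130, were the only members with over 1000 pairs in a table.

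*Slc20a2*, a phosphate carrier, followed with 763 pairs in Input and 743 in H3K27me3-RADIP. *Slc44a1*, a choline transporter, had 475 and 333, and *Slc38a1*, a glutamine carrier, 406 and 370. *Slc9a8*, an endosomal and Golgi sodium-proton exchanger, had 341 and 435. The name *Slc22a14* carried 481 and 680 pairs, but its GENCODE model spans 196 kb against 21 kb in RefSeq, and 87.2% of its H3K27me3-RADIP tags lay within other genes on the same strand, so these pairs cannot be assigned to that transporter.

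Long genes offer more sequence for tags, and Spearman's rho between pairs and gene length was 0.33 over 204 members in Input and 0.46 over 227 in H3K27me3-RADIP, as a description across genes. Per kb of gene, *Slc7a5* was the densest member by a wide margin, with 34.0 pairs per kb in Input and 53.6 in H3K27me3-RADIP. *Slc6a6* came next with 17.2 and 21.2, ahead of the glucose transporter *Slc2a1* with 11 and 13.4 and the phosphate carrier *Slc20a1* with 12.7 and 11.4. The median member had 0.697 and 0.682 pairs per kb.

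**Figure D1:**
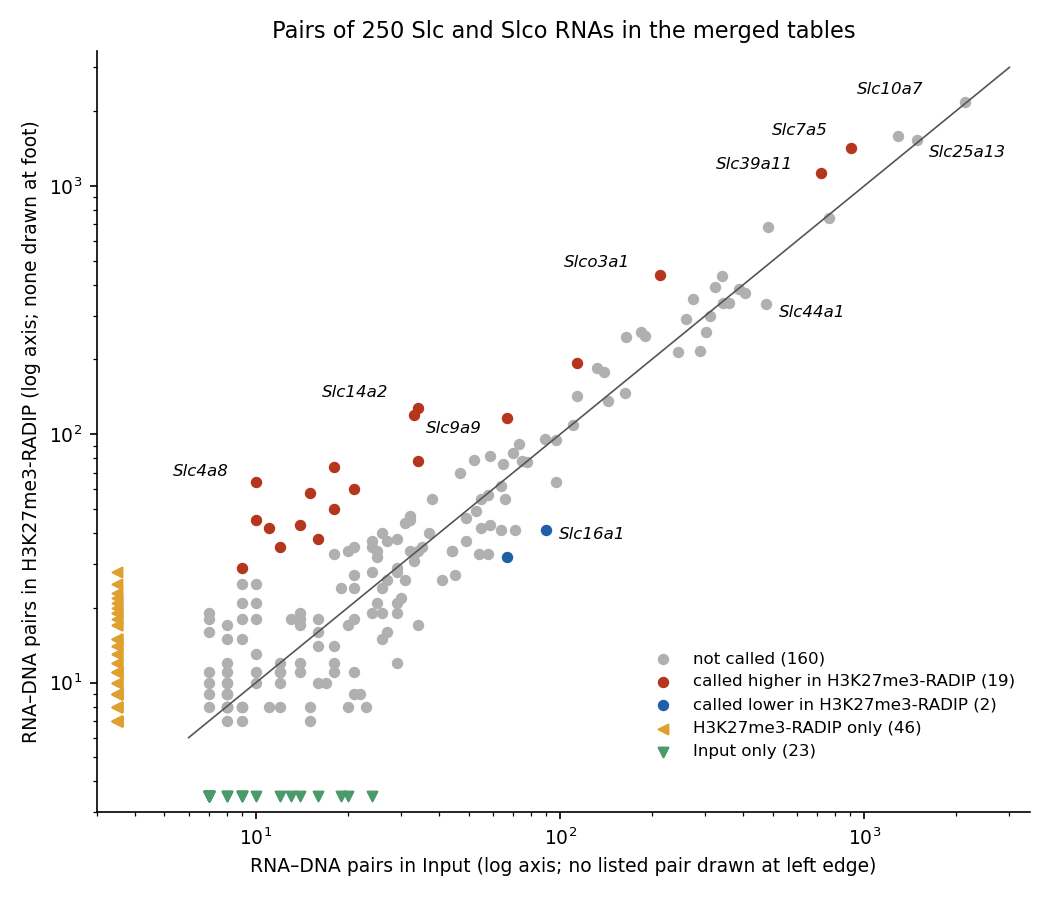
Number of RNA–DNA pairs per member gene in Input (x axis) and H3K27me3-RADIP (y axis), both on log axes, with the line of equal counts. Points are the 181 genes found in both tables, coloured by call; triangles at the left edge are the 46 genes found in H3K27me3-RADIP only and triangles at the foot the 23 found in Input only. The 19 genes called higher include 11 with at most 21 pairs in Input, and of the 10 genes with the most pairs *Slc20a2*, *Slc44a1* and *Slc38a1* lie below the line and the rest above it.

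Pair counts were compared over all 8158 pcRNAs found in both tables, after TMM scaling, with an exact negative binomial test that assumed a coefficient of variation of 0.1 because none could be estimated. A gene was called where the Benjamini-Hochberg adjusted p did not exceed 0.1 and the log2 fold change was 0.5 or more in size, where positive values mean more pairs in H3K27me3-RADIP. 19 of 181 members (10.5%) were called higher, beside 6.77% of all pcRNAs tested. 2 of 181 (1.10%) were called lower, beside 7.69%. The median log2 fold change was −0.02 over the members and −0.01 over all pcRNAs tested, on a scale that TMM centres near 0. The members ran from −1.56 to 2.65. Past the fold limit alone, 44 members lay at 0.5 or above, beside 20.2% of all pcRNAs tested, and 27 at −0.5 or below, beside 21.9%. The calls rest on the assumed variation: with 0.2 in place of 0.1, 6 members were called higher, beside 0.503% of all pcRNAs tested, and none lower, beside 0.821%. With 0.4 no member and no other pcRNA was called. With 0 there were 23 members called higher, beside 11.7%, and 13 lower, beside 12.99%. Scaled by library totals in place of TMM, 17 were called higher, beside 5.50%, and 6 lower, beside 9.86%.

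Carriers of inorganic ions and pH supplied 7 of the 19 members called higher, from 38 genes found in both tables, beside 6.77% of all pcRNAs tested. *Slc4a8*, a sodium-driven chloride-bicarbonate exchanger, rose from 10 pairs in 1 bin to 64 pairs in 4 bins, a log2 fold change of 2.65 (95% counting interval 1.67 to 3.77). *Slc4a4*, the electrogenic sodium-bicarbonate cotransporter, rose from 34 to 78 pairs (1.17). *Slc24a4* and *Slc24a3*, potassium-dependent sodium-calcium exchangers, rose from 18 to 74 (2.01) and from 16 to 38 (1.22). With a q-value of at most 0.01 the value of *Slc24a4* was 2.72. None of the pairs of *Slc24a3* in H3K27me3-RADIP fell in a bin listed for it in Input.

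*Slc9a9*, an endosomal sodium-proton exchanger encoded by a 561-kb gene, rose from 33 pairs in 3 bins to 120 in 11 bins (1.83, 1.26 to 2.43). *Slc12a5*, the neuronal potassium-chloride cotransporter, rose from 9 to 29 (1.66). A further 30 ion carriers found in both tables were not called.

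Carriers of organic ions and drugs supplied 4 of the calls among 12 genes found in both tables, beside 6.77% of all pcRNAs tested. The prostaglandin transporter *Slco2a1* rose from 15 pairs in 1 bin to 58 in 4 (1.92), *Slco5a1* from 11 in 1 bin to 42 in 4 (1.90), and *Slco3a1* from 213 in 15 bins to 438 in 29 (1.01, 0.77 to 1.25). *Slc22a3*, an organic cation transporter that lies in the imprinted *Igf2r* domain, rose from 14 to 43 (1.59). With an assumed variation of 0.2 *Slco2a1* alone of these 4 kept its call. Over the Slco family the pairs went from 273 to 601 and the bins from 20 to 41, and *Slco3a1* held most of them.

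The remaining calls were spread over single families. The urea transporter *Slc14a2*, a 451-kb gene, rose from 34 pairs in 4 bins to 128 in 11 (1.88, 1.33 to 2.47). With a q-value of at most 0.01 its log2 fold change was 3.66, so the size rests on the limit set for the bins. *Slc35c2*, a Golgi nucleotide sugar carrier, rose from 10 to 45 (2.14). Among sugar carriers the urate transporter *Slc2a9* rose from 21 to 60 (1.48) and the intestinal glucose transporter *Slc5a1* from 12 to 35 (1.51). *Slc1a1*, a neuronal glutamate transporter, rose from 18 to 50 (1.44) and *Slc49a4*, a lysosomal membrane protein, from 114 to 194 (0.73). *Slc7a5* (0.62, 0.50 to 0.75) and *Slc39a11* (0.62, 0.49 to 0.76) had the smallest folds of the calls and by far the most pairs.

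The monocarboxylate carrier *Slc16a1*, which exports lactate, was called lower, from 90 pairs in 3 bins to 41 in 2 (−1.17, −1.74 to −0.62; adjusted p = 0.0135 by the exact test). Among members that were not called, the neutral amino acid transporter *Slc1a4* went from 34 to 17 pairs (−1.03), the aromatic amino acid carrier *Slc16a10* from 58 to 33 (−0.85), the zinc carrier *Slc30a7* from 71 to 41 (−0.82) and the copper importer *Slc31a1* from 45 to 27 (−0.77). With a q-value of at most 0.01 *Slc1a4* stood at −0.02 and *Slc30a7* at −0.15, whereas *Slc31a1* stood at −1.26 and was called lower (adjusted p = 0.0428 by the exact test). With repeated positions counted once *Slc1a4* was called lower (−1.33, adjusted p = 0.0902 by the exact test). The mitochondrial branched-chain amino acid carrier *Slc25a44* went from 54 to 33 (−0.74) and the thiamine transporter *Slc19a2* from 41 to 26 (−0.69). None of the 22 mitochondrial carriers and none of the 12 carriers of neurotransmitters found in both tables was called. Beside these counts, 6.77% of all pcRNAs tested were called higher and 7.69% lower. With an assumed variation of 0 *Slc25a44* was called lower (adjusted p = 0.0786 by the exact test), as were *Slc1a4*, *Slc16a10* and *Slc30a7*. Nearest the fold limit, and not called, were *Slc8a3* (0.50), *Slc8a2* (0.51), *Slc16a3* (0.52) and *Slc6a11* (0.54) just inside it and *Slc30a5* (−0.50), *Slc25a4* (−0.49), *Slc38a7* (−0.49) and *Slc13a3* (−0.48) just outside.

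**Figure D2:**
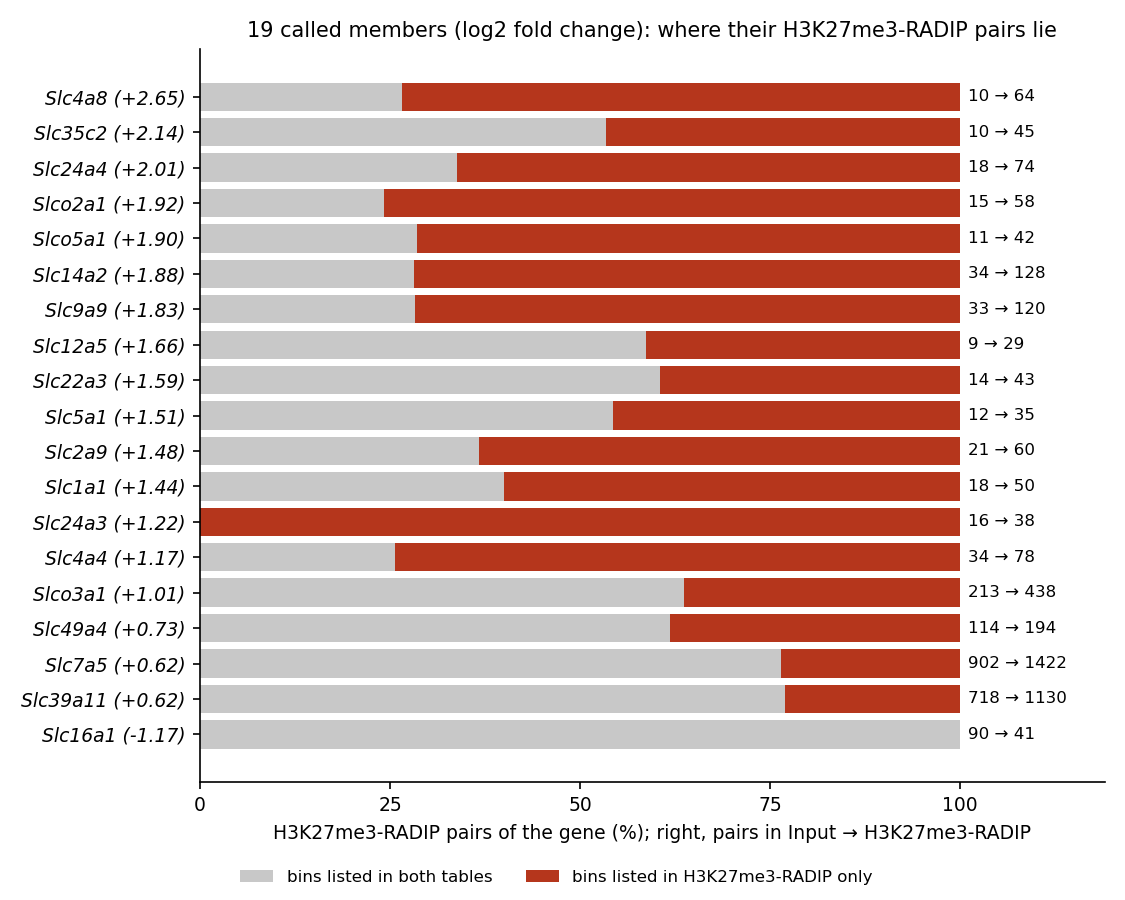
Share of the H3K27me3-RADIP pairs of each of 19 called members (x axis, percent) that lay in bins also listed for the gene in Input (grey) or only in H3K27me3-RADIP (red), with the log2 fold change beside the gene name and the pairs in both tables at the right. All 38 pairs of *Slc24a3* lay in bins listed only in H3K27me3-RADIP, whereas *Slc16a1*, called lower, had none there.

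The pairs of the called genes lay partly in bins that Input did not list. All 19 members called higher had more bins in H3K27me3-RADIP, and 1453 of their 4164 pairs (34.9%) lay in bins listed only there. The call was made on the same pairs, so these counts describe the called genes and are no separate result. The genes called higher were long, with a median of 107 kb against 39.4 kb for members not called. Over all pcRNAs the medians were 88.0 kb for those called higher, 60.5 kb for those called lower and 43.7 kb for those not called, so genes called in either direction were longer. Gene length moved with the call, and its part in the result was not tested. Over all members, 720 combinations of gene and bin were listed in both tables, which was 77.3% of the 931 in Input and 63.9% of the 1127 in H3K27me3-RADIP. For all pcRNAs these shares were 76.7% and 67.1%.

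Genes found in only 1 table had few pairs. 46 members (18.4%) were found in H3K27me3-RADIP only, beside 13.5% of all pcRNAs, and held 7 to 28 pairs with a median of 11. 23 members (9.2%) were found in Input only, beside 10.5% of all pcRNAs, with 7 to 24 pairs and a median of 8. Of the 46, 34 were in a single bin and none in more than 3, and none had a pair beyond 100 kb. Of the 23, 18 were in a single bin and none in more than 2, and 1 had a pair beyond 100 kb, at 159 kb. Since 7 pairs was the smallest combination listed, a gene near that limit can enter or leave a table on few reads. At a limit of 20 pairs per gene, 22 members reached the limit in H3K27me3-RADIP but not in Input and 16 in Input but not in H3K27me3-RADIP. These include genes that the other table lists with fewer pairs, and the share over all pcRNAs was not computed at this limit.

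By substrate, organic ion and drug carriers had 8 of 21 genes in H3K27me3-RADIP only and 1 in Input only, beside 13.5% and 10.5% of all pcRNAs. 5 of the 8 were Slc22 genes, among them *Slc22a8*, *Slc22a15*, *Slc22a18* and *Slc22a22*. Carriers of neurotransmitters had 7 against 2: the proline transporter *Slc6a7* (21 pairs), *Slc6a17* (20), the betaine transporter *Slc6a12* (19), the dopamine transporter *Slc6a3* (9), *Slc18b1* (9), the vesicular inhibitory amino acid transporter *Slc32a1* (7) and *Slc6a21* (7) were listed only after the pull-down. The noradrenaline transporter *Slc6a2* (14) and *Slc6a15* (12) were listed only in Input. Mitochondrial carriers had 8 against 3, led by *Slc25a47* (22). In all, 21 carriers of neurotransmitters and 33 mitochondrial carriers were found.

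Amino acid carriers were nearly even with 5 against 4, among them the cationic amino acid transporter *Slc7a2* (28 pairs, H3K27me3-RADIP only) and *Slc7a8* (19, Input only). Ion carriers had 5 against 4, with the sodium-proton exchangers *Slc9a2* (25) in H3K27me3-RADIP only and *Slc9a7* (24) in Input only, where *Slc26a11* (16) was found too. Metal carriers ran the other way, with 1 gene in H3K27me3-RADIP only and 4 in Input only. *Slc29a4*, a monoamine transporter of the plasma membrane, had 23 pairs in H3K27me3-RADIP only, and the creatine carrier *Slc16a12* had 20 in Input only. These counts are small and carry no test. Over all pcRNAs, 13.5% were found in H3K27me3-RADIP only and 10.5% in Input only.

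**Figure D3:**
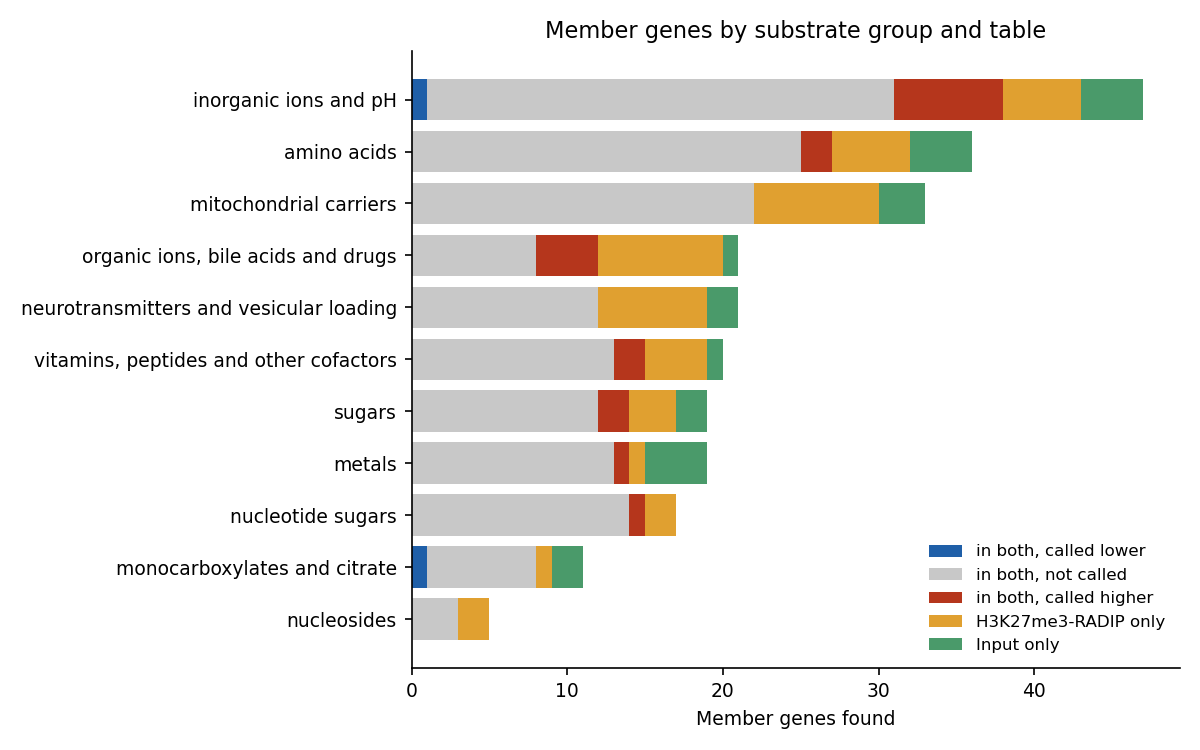
Number of member genes found in each substrate group (x axis, genes), divided into genes in both tables by call and genes in 1 table only. Organic ion and drug carriers had 12 of 21 genes called higher or found in H3K27me3-RADIP only, and mitochondrial carriers 8 of 33, all of them found in H3K27me3-RADIP only. Over all members the count was 65 of 250, beside 18.6% of all pcRNAs.

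No member had a listed *trans* pair, that is, one with a DNA tag on another chromosome. The study reports that its background removal took out many *trans* pairs of low frequency, so members may have unlisted ones. Other pcRNAs had few as well, 37 of 1243103 pairs in Input and 341 of 1338467 in H3K27me3-RADIP. The members' median distance between RNA and DNA tag was 29.5 kb in Input and rose to 41.5 kb in H3K27me3-RADIP, shorter than the 44.7 and 69.3 kb of the other pcRNAs. DNA tags inside the RNA's own gene made up 54.8% of the member pairs in Input and 48.1% in H3K27me3-RADIP.

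Long-range *cis* pairs, over 100 kb, made up 30.3% of member pairs in Input (29.7 to 31.0) and 36.4% after the pull-down (35.8 to 37.1), which is 6.07 percentage points more (5.14 to 7.01). For the other pcRNAs the shares were 36.5% and 43.8%, a difference of 7.31 points (7.19 to 7.43). With each of 141 members weighted equally the difference was 2.89 points. Beyond 1 Mb the members had 0.874% and 1.11% of their pairs, against 4.53% and 7.13% in the other pcRNAs. In 159 of 204 members in Input and 173 of 227 in H3K27me3-RADIP no pair exceeded 100 kb, so the shares describe a minority of the genes.

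Among 141 members with at least 10 *cis* pairs in each table, 97 (68.8%) had a longer median distance in H3K27me3-RADIP, close to the 69.5% of all pcRNAs. The median ratio of H3K27me3-RADIP to Input was 1.19 in the members and 1.34 in all pcRNAs. The zinc transporter *Slc39a14* went from 19.2 to 117 kb and *Slc14a2* from 0.670 to 6.89 kb. *Slc7a6*, a relative of *Slc7a5*, went from 4.65 to 21 kb, *Slc66a2* from 3.10 to 13.4 kb and *Slc2a9* from 1.19 to 4.75 kb. In the other direction, *Slc25a42*, the mitochondrial coenzyme A carrier, went from 9.30 to 1.89 kb and *Slc44a5* from 5.78 to 1.79 kb. Of the 10 genes with the most pairs *Slc44a1* alone went down, from 82.3 to 47.3 kb.

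**Figure D4:**
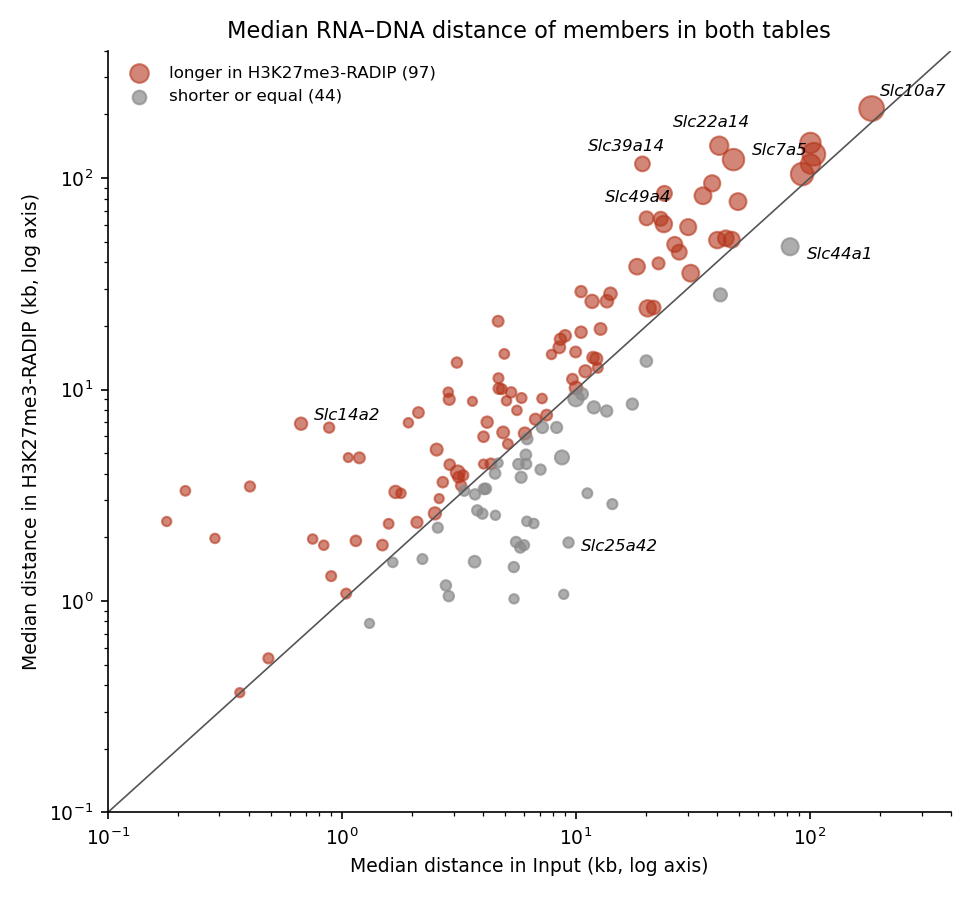
Median distance between RNA tag and DNA tag per member in Input (x axis, kb) and H3K27me3-RADIP (y axis, kb), on log axes with the line of equality, for the 141 members with at least 10 *cis* pairs in each table. Larger points have more pairs; 97 lie above the line, and most genes with medians over 20 kb in Input do.

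The contacts outside the members' own genes named particular loci. Outside bins that overlap the RNA's own gene, 336 combinations were listed in both tables with 5349 Input and 6386 H3K27me3-RADIP pairs, 136 in Input only with 1342 pairs, and 261 in H3K27me3-RADIP only with 2750 pairs. The bins described next were picked after the values were seen, for the size of their change or for a gene that they hold, so they carry no test and their counting intervals do not allow for that choice. Each is given by its pairs in Input and then in H3K27me3-RADIP. Where an RNA had none in a bin, no combination passed the q-value limit, so unlisted pairs may exist there. The same holds for the pairs of other pcRNAs.

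*Slc25a13* RNA contacted the *Dlx5* and *Dlx6* locus, a pair of homeobox genes of limb and forebrain development. In the bin chr6:6850001-6875000 with the start of *Dlx6*, upstream of the gene and about 739 kb from the RNA tags, it had 29 and 65 pairs (log2 fold change 1.13, 95% counting interval 0.48 to 1.82). In the next bin, which holds the start of *Dlx5*, it had 17 and 39 (1.17, 0.31 to 2.08). No other pcRNA had a listed pair in the first bin, and other pcRNAs had 0 and 17 in the second. The total of *Slc25a13* was 1489 pairs in Input and 1531 in H3K27me3-RADIP. Further out on the other side, at a distance of 1357 kb, 9 pairs in H3K27me3-RADIP and none in Input reached the bin with the starts of the imprinted genes *Sgce* and *Peg10*. Beyond 1 Mb *Slc25a13* had 6 bins in Input only, with 8 to 12 pairs each and *Tac1* in one of them, and 2 in H3K27me3-RADIP only, with 9 pairs each.

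Its paralog *Slc25a12*, the other mitochondrial aspartate-glutamate carrier, had 244 and 215 pairs in all. 25 of those in H3K27me3-RADIP, and none listed in Input, lay in the bin chr2:71525001-71550000 with the starts of *Dlx1* and *Dlx2*. The *Dlx2* promoter is printed above. Other pcRNAs had 45 and 71 pairs in that bin. In Input 13 pairs of *Slc25a12* lay downstream in a bin with the start of *Cybrd1*, and none did in H3K27me3-RADIP. *Slc25a12* had no listed pair upstream of its gene in Input and 43 in H3K27me3-RADIP.

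*Slc7a5* RNA had 31 pairs in H3K27me3-RADIP and none listed in Input in the bin chr8:121075001-121100000. That bin holds the start of the forkhead gene *Foxf1*, about 813 kb downstream. The bin with *Foxc2* beside it had 8 and 11 pairs, and the bin with *Foxl1* had 0 and 15. Other pcRNAs had 90 and 235 pairs in the *Foxf1* bin. Nearer to the gene, the bin with the start of *Jph3* had 14 and 35 pairs (1.29, 0.36 to 2.30), and other pcRNAs had 107 and 169 there. The bin of *Fbxo31* and *Map1lc3b* ran the other way with 16 and 0 pairs, against 106 and 101 of other pcRNAs. Over the whole gene the bins went from 38 to 59, the median distance from 47.2 to 122 kb and the share of pairs over 100 kb from 38.1% (35.0 to 41.4) to 53.2% (50.6 to 55.8).

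*Slc10a7* had nearly the same number of pairs in both tables and a small rise in distance, from a median of 184 to 213 kb. Its largest gain was in the bin chr8:78425001-78450000 with *Pou4f2*, a POU homeobox gene of sensory neurons, at 41 and 65 pairs (0.63, 0.05 to 1.23), while other pcRNAs had 9 and 8 pairs there. A bin with the start of *Arhgap10*, 1066 kb away, had 0 and 18, and other pcRNAs had 20 and 51 there. A bin 886 kb upstream ran the other way with 14 and 0. The farthest pairs of any member were those of *Slc10a7* in H3K27me3-RADIP: 8 pairs in chr8:95925001-95950000, 17.3 Mb from the tags, and 8 in chr8:88375001-88400000 at 9.82 Mb, with none in Input. Both bins contain no protein-coding gene, and both combinations had a q-value of 0.0703, near the limit of the table.

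**Figure D5:**
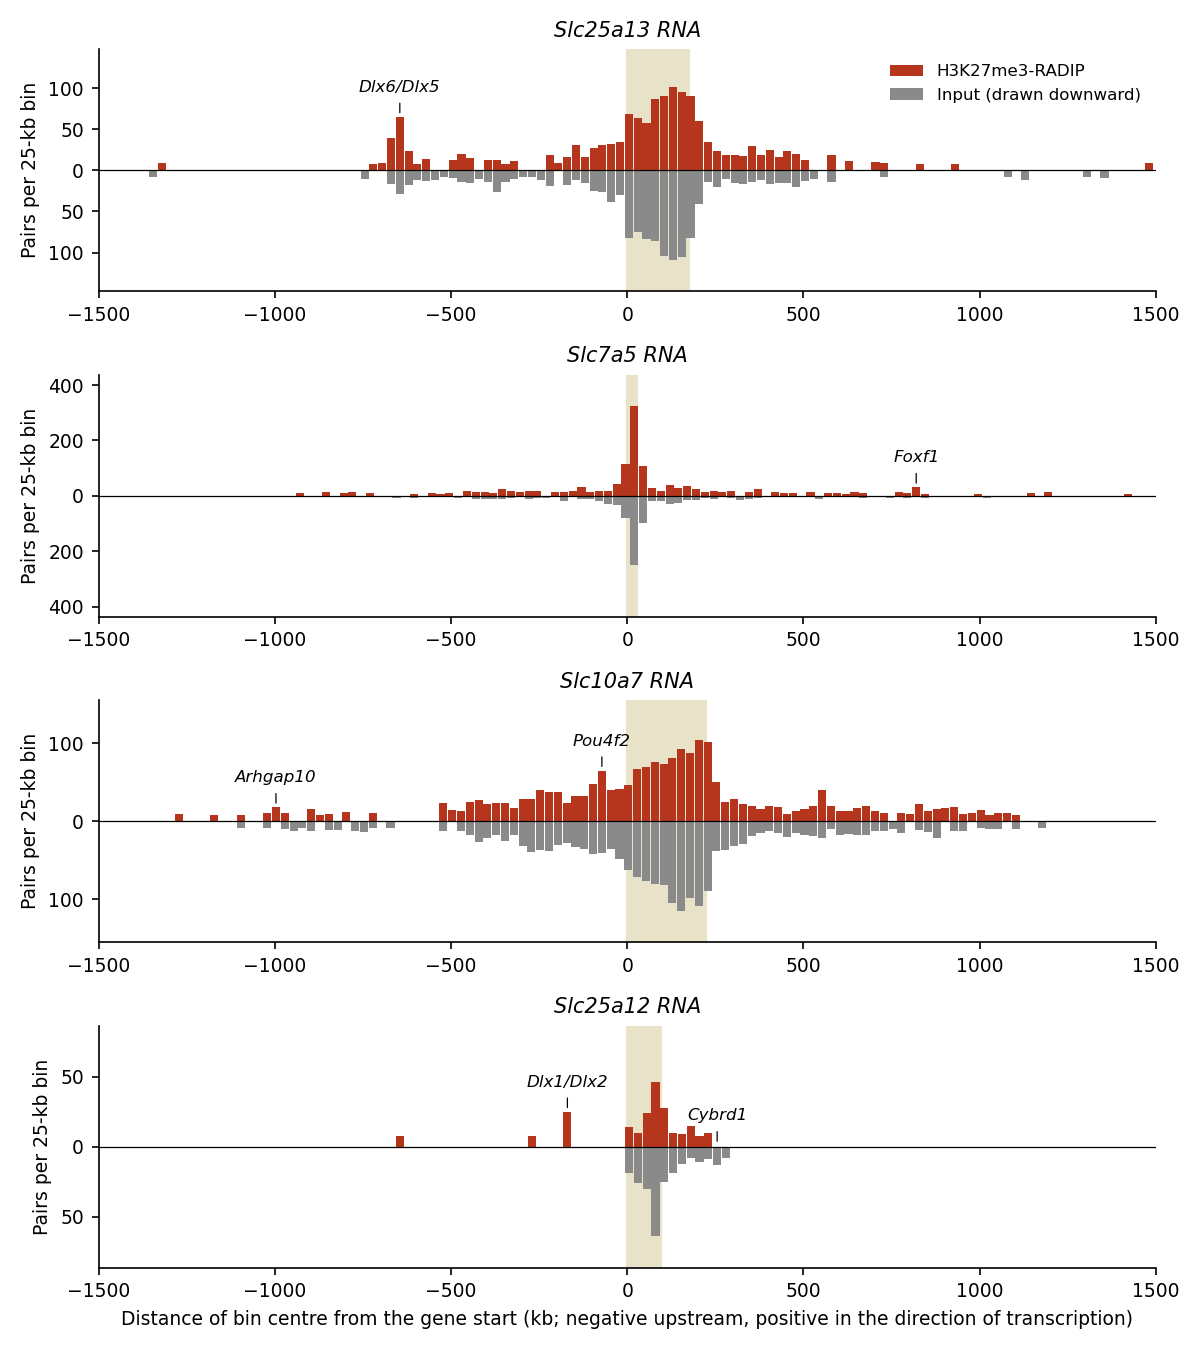
Pairs per 25-kb bin (y axis; H3K27me3-RADIP upward, Input downward) of 4 member RNAs against the distance of the bin centre from the gene start (x axis, kb, positive in the direction of transcription), with the gene shaded; pairs beyond 1500 kb are not drawn. *Slc25a13* shows a second peak at *Dlx6* and *Dlx5* of 65 pairs upward and 29 downward, and the bins of *Foxf1* and of *Dlx1* and *Dlx2* have bars in H3K27me3-RADIP only.

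*Slc6a6* had the largest single gain outside its own gene, in the bin chr6:91775001-91800000 inside *Grip2*, a scaffold of glutamate receptors, with 36 and 74 pairs (1.01, 0.41 to 1.62). The next bin in *Grip2* had 30 and 59 pairs (0.94, 0.29 to 1.63). Other pcRNAs had 45 and 83 pairs in the first of them and 22 and 57 in the second. On the upstream side 23 pairs in H3K27me3-RADIP and none in Input reached chr6:91175001-91200000, which holds no protein-coding gene and where other pcRNAs had 64 and 111. A bin in *Nr2c2* ran the other way, with 13 and 0 pairs of *Slc6a6* and 67 and 36 of other pcRNAs. *Slc39a11* went from 34 to 55 bins. Its largest gain, from 14 to 32 pairs, was about 187 kb downstream in chr11:113200001-113225000, a bin with no protein-coding gene and no pair of another pcRNA. A further 9 of its H3K27me3-RADIP pairs, with none in Input, lay in the bin with the start of *Sox9*, about 547 kb downstream.

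*Slc25a36*, a mitochondrial pyrimidine nucleotide carrier, had 190 and 249 pairs in all. In 2 adjoining bins downstream it had 0 and 23 pairs and 8 and 26 pairs, the latter with the start of *Spsb4*. A bin just upstream, chr9:97125001-97150000, ran the other way with 14 and 0 pairs. Its DNA tags inside its own gene fell from 35.8% to 15.7% of its pairs. Some member RNAs also had pairs in bins that overlap a neighbouring member. *Slc20a2* RNA had 16 and 32 pairs in bins of *Slc25a15*, of which 15 and 28 lay inside that gene. *Slc38a1* RNA had 20 and 27 in bins of *Slc38a2*, with 9 and 10 inside the gene. *Slc12a7* RNA had 28 and 14 in bins of *Slc6a19*, with 16 and 2 inside.

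Most RNA tags were intronic. Introns held 88.1% of the member pairs of Input and 89.1% of those of H3K27me3-RADIP, 0.996 percentage points more (0.363 to 1.63), beside 88.9% and 89.6% in the other pcRNAs. Tags in 3′ untranslated regions made up 4.18% and 3.88%, and coding sequence 3.36% and 3.03%. The 5 members with the lowest intronic share, among those with at least 30 pairs in each table, were genes of 12.3 to 37.2 kb. *Slc38a2*, a glutamine carrier, had 28.8% and 30.8% intronic pairs, the lactate exporter *Slc16a3* 37.5% and 36.2%, and *Slc3a2*, the heavy chain that pairs with *Slc7a5*, 61.9% and 54.7%. *Slc20a1* had 65.0% and 59.2%, and the histidine and peptide transporter *Slc15a4* 64.9% and 70.5%. By contrast *Slc39a11* and *Slc10a7* were above 95% intronic in both tables.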

How the data were processed

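The merged Input and H3K27me3-RADIP tables (8 labelled libraries each, which may include repeat runs) were used as deposited, 1 table per condition. Per the study's methods, the authors mapped RNA and DNA tags to mm10, kept unique pairs, assigned RNA tags to GENCODE M25 genes and DNA tags to 25-kb bins, merged replicates and kept pairs with a q-value of at most 0.1 from a negative binomial model. The q-value column of the deposited files applies to a combination of RNA and bin. The submitters' processing notes name BWA 0.7.15-r1140, STAR 2.5.0a and CASAVA 1.8.2.

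Pairs were counted per RNA name with Python 3.11.15, pandas 2.3.3, numpy 2.4.6 and scipy 1.17.1. Repeated positions were kept (6.71% of member pairs in Input, 9.76% in H3K27me3-RADIP). Distances run between tag centres. Counts were scaled by TMM over RNAs in both tables (factors 1.03 and 0.975) and compared with an exact conditional negative binomial test, 2-sided, coded for this purpose, with Benjamini-Hochberg adjustment over 8158 RNAs. On simulated counts of those 8158 RNAs for this comparison, the test called 85% of RNAs changed by a log2 fold of 2. It called 35% of those changed by 1 and 0.163% of unchanged ones. The simulation used the same variation that the test assumes. These rates therefore hold only under that assumption and cannot show whether it is right for the real tables. Gene positions came from GENCODE M21, which is older than the authors' release but on the same build. All 250 identifiers matched it, 243 with the same version.

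Named genes were those with the most pairs, the largest and smallest fold changes among genes with at least 50 pairs, the most pairs among genes in 1 table, the largest and smallest distance ratios, the farthest pairs, the lowest intronic shares and the top of each family. Other genes called, counted or shown by bin were picked with their values in view. The members and lists were chosen with earlier results of these data known. Substrate groups follow textbook family roles. *Slc66a2* lies outside the groups. A few members enter the counts but are not reported here by name. Intervals are 95% and cover counting error only: amplified reads are not independent molecules, and neighbouring pairs share fragments. Alternatives varied the q-value limit, repeated positions, minimum counts, scaling, assumed variation, gene identity and the weight of single genes.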

Additional observations from a re-analysis of the deposited data

How the results depend on the processing

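No paired analysis was possible because the replicates of each condition were merged before deposit, and for the same reason no replicate could be left out. With at least 20 pairs per gene, 112 members reached that limit in Input, 118 in H3K27me3-RADIP, 22 in H3K27me3-RADIP alone and 16 in Input alone, including genes that the other table lists with fewer pairs. With a q-value of at most 0.01, 195 and 160 were found in H3K27me3-RADIP and Input, 53 in H3K27me3-RADIP only and 18 in Input only. At neither limit was the share over all pcRNAs computed, so these counts have no background beside them. Members called higher and lower numbered 23 and 13 with an assumed variation of 0 (beside 11.7% and 12.99% of all pcRNAs tested), 6 and 0 with 0.2 (0.503% and 0.821%) and 0 and 0 with 0.4 (no pcRNA). They numbered 17 and 6 with library totals (5.50% and 9.86%), 19 and 4 with a q-value of at most 0.01 (8.26% and 9.18%; 15 and 1 of the members are among those reported), and 44 and 27 by fold alone (20.2% and 21.9%). Weighted equally over members, the difference in long-range share was 2.89 points. With at least 30 *cis* pairs, 57 of 73 members had a longer median distance in H3K27me3-RADIP. The share over all pcRNAs was not computed at that limit, so the count cannot be set against theirs. With a q-value of at most 0.01 the log2 fold change of *Slc14a2* was 3.66, of *Slc24a4* 2.72, of *Slc1a4* −0.02 and of *Slc30a7* −0.15, while *Slc31a1* (−1.26), *Slc3a2* (−0.81) and *Slc44a1* (−0.70) were called lower and *Slc39a14* (0.64) higher. With repeated positions counted once *Slc1a4* was called lower (−1.33), and with library totals *Slc27a2* (−1.38), *Slc30a7* (−0.90) and *Slc44a1* (−0.62) were. Signs turned for genes that were not called: *Slc25a13* (−0.066 with library totals), and with a q-value of at most 0.01 *Slc15a4* (0.091), *Slc29a3* (−0.23), *Slc44a5* (1.06) and *Slc4a7* (−0.37). The cause of these changes was not tested. The differences in member share and in intronic share kept their direction under each alternative run, but without the 5 members with the most pairs the difference in member share fell from 0.111 to 0.0536 percentage points. Genes with under 50 pairs in both tables together were rarely called in the simulation at a log2 fold of 1 (3.33% of 30) and in 45.8% of 24 at a log2 fold of 2. The simulation assumed a variation of 0.1, and under that assumption smaller changes of such genes were mostly not called. The part of depth in this was not tested.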
